A study of Drosophila melanogaster with 18 samples.

Results

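Axonal transport was followed through 10 Drosophila melanogaster genes for microtubule motors and their adaptors, chosen by name as rows of a table of RNA-seq read counts for 17402 genes. They were Khc, Klc and unc-104 for kinesins, milt and Miro for the link between kinesin and mitochondria, Dhc64C, sw and robl for cytoplasmic dynein, and Lis-1 and hook for proteins that work with dynein. The rule names the genes and uses no measured value, although it was written with earlier results of these data known. All 10 passed the filter on low counts in every comparison, with 49 or more reads in each library. The table held 18 libraries in 6 groups of 3. Pupal control and larval control neurons carried elav>Dcr, mCD8::GFP, and pupal RNAi and larval RNAi neurons carried elav>shep-RNAi, Dcr, mCD8::GFP. The elav driver is active in neurons, Dcr is an RNA-processing enzyme that strengthens RNA interference, and both it and membrane GFP were present in every neuron group, controls included. Neurons were sorted alive from P14 pupae, a late stage before the adult emerges, or from third-instar larvae, all raised at 25 °C. BG3 (BG3-c2) is a single cell line from nervous system tissue, whose cells received double-stranded RNA (dsRNA) to shep or, for the controls, to GFP. The gene knocked down, shep, encodes an RNA-binding protein, and the series asked how the transcriptome of neurons responds to its loss. The labels do not say whether replicates came from separate animals or cultures, so p-values here reflect library-to-library spread, which may be technical.

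Axons are supplied along microtubules whose plus ends point away from the cell body. Kinesins walk toward plus ends and carry vesicles and mitochondria outward, while cytoplasmic dynein walks back toward the cell body with endosomes, worn organelles and signalling cargo. Each motor is a complex of force-producing heavy chains with smaller chains and adaptors that choose the cargo. The same dynein also positions nuclei and works on the spindle of dividing cells, so its genes are used well beyond axons.

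Total counts per library ranged from 7392299 to 12910603 in neurons. In BG3 cells they ranged from 3141100 to 3203392 with GFP dsRNA and from 3651214 to 5081610 with shep dsRNA, without overlap. The part of this difference in the BG3 knockdown results was not tested. The level of shep fell by 0.92 on the log2 scale in pupal RNAi neurons, by 1.44 in larval RNAi neurons and by 1.08 in BG3 cells with shep dsRNA (edgeR quasi-likelihood adjusted p of 3.70e-06, 4.93e-09 and 1.26e-06). The summed level of 6 neuron markers was 17200 to 21280 CPM (read counts scaled to the size of the library) in pupal control libraries. It was 6224 to 7325 CPM in larval control libraries and 85.1 to 93.1 CPM in BG3 cells with GFP dsRNA. Of the 6, 4 were higher and 2 lower in pupal than in larval control neurons at an edgeR adjusted p under 0.05. In those BG3 libraries 4 of the 6 (fne, nSyb, brp and Syt1) averaged below 1 CPM, so the label of a nervous system line had little support from neuron markers. The hemocyte markers Hml, srp and Col4a1 were present in BG3 cells with GFP dsRNA, where the 6 hemocyte markers summed to 1164 to 1223 CPM. The other 3 (NimC1, He and eater) averaged below 1 CPM, and 1 of them had 0 reads in every GFP dsRNA library. In the same libraries the 6 glia markers summed to 448 to 499 CPM, against 101 to 117 CPM in larval control libraries. The 6 muscle markers summed to 301 to 326 CPM, against 30.8 to 44.2 CPM. Of 5 glia markers tested against larval control neurons, 2 were higher and 1 lower at an edgeR adjusted p under 0.05. Of 4 muscle markers, 1 was higher and 3 lower. Which cell type the line resembles was not tested. Levels below are CPM on a single scale for all 18 libraries, and levels of different genes are compared only per kilobase of exonic length.

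Of the 10 genes, 8 were higher in pupal than in larval control neurons and Khc alone was lower, at an adjusted p under 0.05. With 83.3% of the 8784 genes tested called in that comparison (39% higher and 44.3% lower), a share of 9 in 10 lay near the background. The groups did not overlap for 8 genes that were higher and 1 that was lower, where 84% of all genes showed no overlap. The median of the 10 log2 fold changes was 0.67, beside -0.17 over all genes tested. The sizes differed widely, from unc-104, 9.07-fold higher, to robl, which did not pass. In these bulk libraries fewer cells of a type and less RNA per cell cannot be told apart. The 6 neuroblast markers summed to 289 to 417 CPM in larval control libraries, with each of the 6 above 1 CPM. They summed to 10.5 to 12.9 CPM in pupal control libraries, where 4 of the 6 (ase, dpn, wor and insc) averaged below 1 CPM and none was at 0 in every library. The part of that difference in the stage results was not tested.

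**Figure D1:**
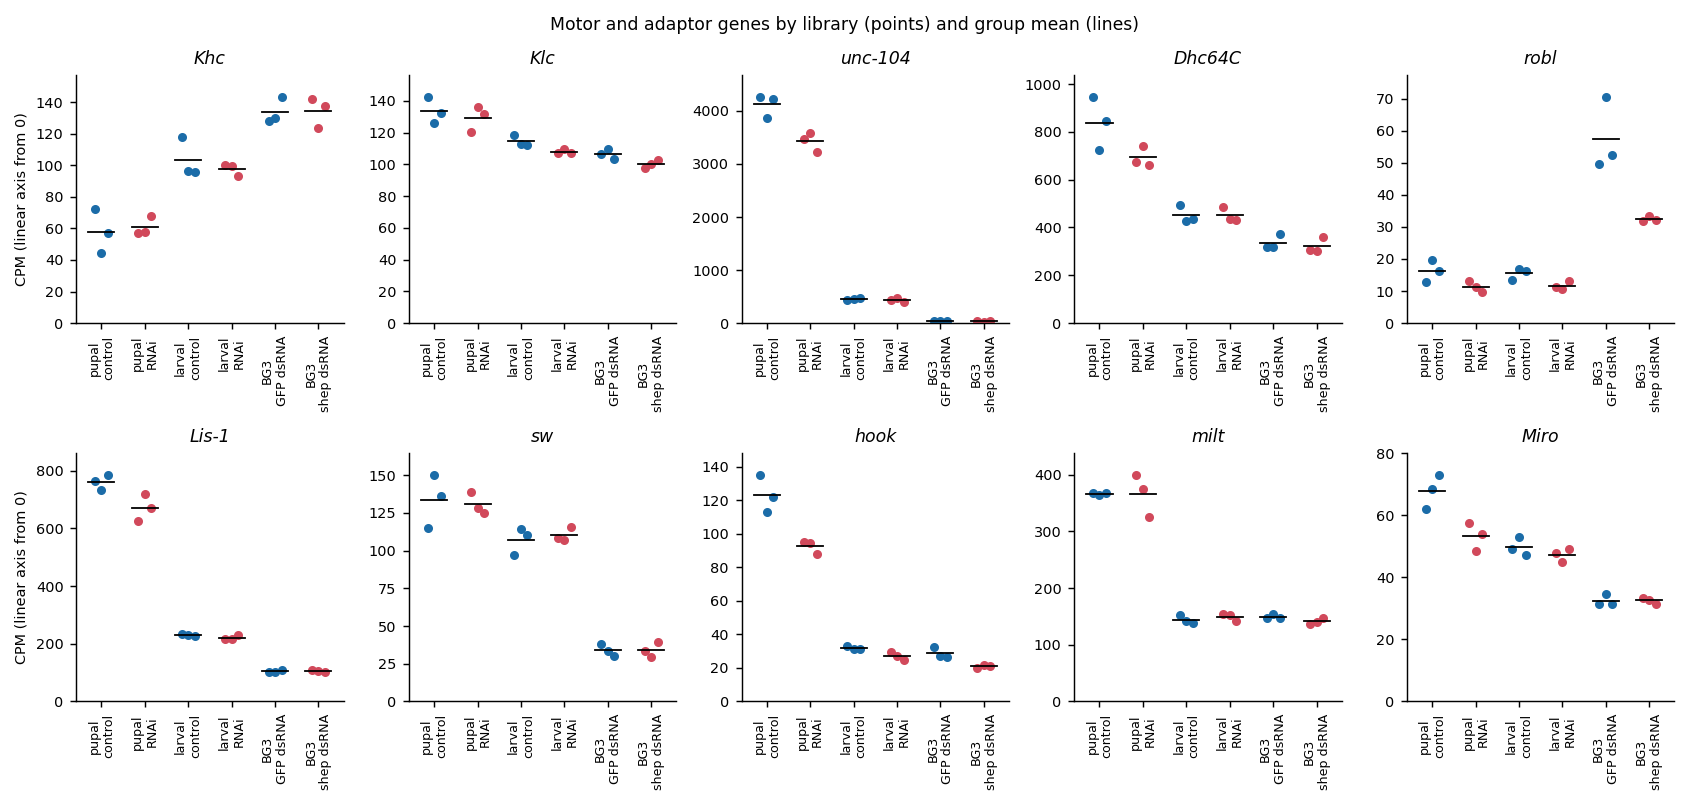
CPM of each gene in every library (points, linear axes that start at 0) and group means (lines) for the 6 groups of 3 libraries, with controls in blue and shep knockdown in red. The unc-104 panel falls from 3875 CPM or more in pupal control libraries to 43.8 CPM or less in BG3 cells, and the Khc panel runs the other way.

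The kinesin-1 motor is built from the heavy chain Khc, which hydrolyses ATP, and the light chain Klc, which binds cargo. Khc (FBgn0001308, chromosome 2R from 16266960 to 16271971, minus strand) was at 72.1, 44.4 and 56.8 CPM in pupal control libraries. It was at 118, 96.1 and 95.5 CPM in larval control libraries. In BG3 cells with GFP dsRNA it was at 128, 130 and 143 CPM. The groups did not overlap, with the lowest level in pupal neurons and the highest in the cell line. The level in pupal control neurons fell by 43.9% relative to larval control neurons (log2 fold change -0.83, SE 0.14, adjusted p = 1.60e-05).

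Klc (FBgn0010235, chromosome 3L from 12746616 to 12750056, minus strand) stayed within a narrow band in all 6 groups. Its group means ran from 134 ± 8.33 CPM (SD, n = 3) in pupal control neurons to 115 ± 3.31 CPM in larval control neurons and 106 ± 3.08 CPM in BG3 cells with GFP dsRNA. Pupal control libraries lay above larval control libraries, a rise of 1.17-fold (log2 fold change 0.23, SE 0.08, adjusted p = 0.00943). The light and heavy chain of the same motor thus went in opposite directions between the stages. An exon of CG32109 on the opposite strand covers 7.51% of the exonic bases of Klc, and the strand setting of the counting is not given in the sources used here. CG32109 was at 10.6 ± 1.84 CPM (SD, n = 3) in pupal control neurons, against 134 CPM for Klc.

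The kinesin-3 motor unc-104 (FBgn0267002, chromosome 2R from 16751503 to 16772671, minus strand) carries precursors of synaptic vesicles and dense core vesicles down the axon. Its level was 4260, 3875 and 4234 CPM in pupal control libraries and 3468, 3583 and 3229 CPM in pupal RNAi libraries. Larval control libraries held 438, 455 and 480 CPM, and larval RNAi libraries 435, 464 and 399 CPM. BG3 cells held 43.8, 39.9 and 38.6 CPM with GFP dsRNA and 30.2, 26.3 and 36.6 CPM with shep dsRNA. Its 3 kinds of sample stood about an order of magnitude apart, and only the larval control and larval RNAi groups overlapped. Pupal control neurons were 9.07-fold above larval control neurons (log2 fold change 3.18, SE 0.10, adjusted p = 1.39e-19). CG42392 shares 168 exonic bases with unc-104 on the same strand. It rose by 3.66 on the log2 scale over the same contrast, from 11.7 ± 2.15 to 145 ± 24.7 CPM (SD, n = 3), and had at most 2 reads per library in BG3 cells.

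Mitochondria ride on kinesin-1 through Miro, a GTPase in their outer membrane, and milt, the adaptor that joins Miro to the heavy chain. The level of milt (FBgn0262872, chromosome 2L from 7037823 to 7056010, plus strand) was 368, 364 and 367 CPM in pupal control libraries. It was 152, 141 and 138 CPM in larval control libraries and 148, 153 and 146 CPM in BG3 cells with GFP dsRNA. Larval neurons and the cell line overlapped, and pupal neurons lay 2.56-fold above larval neurons (log2 fold change 1.36, SE 0.08, adjusted p = 4.39e-14). The rise of its partner was smaller. Miro (FBgn0039140, chromosome 3R from 24034362 to 24038847, minus strand) was at 61.9, 68.6 and 72.9 CPM in pupal control libraries against 49.3, 53.1 and 47.3 CPM in larval control libraries. Those groups did not overlap (log2 fold change 0.45, SE 0.09, adjusted p = 6.26e-05). Exons of spas, a gene for a microtubule-severing protein on the opposite strand, cover 16.7% of the exonic bases of Miro. The level of spas rose by 0.91 on the log2 scale over the same contrast, and reads of the pair cannot be told apart if the counting ignored strand.

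Cytoplasmic dynein was represented by its heavy chain Dhc64C, its intermediate chain sw and its light chain robl. Dhc64C (FBgn0261797, chromosome 3L from 4807368 to 4825687, minus strand) was at 945, 724 and 846 CPM in pupal control libraries. It was at 495, 426 and 434 CPM in larval control libraries and 319, 318 and 373 CPM in BG3 cells with GFP dsRNA. These groups did not overlap, and pupal control neurons were 1.87-fold above larval control neurons (log2 fold change 0.90, SE 0.10, adjusted p = 6.67e-09). This gene has 14597 exonic bases, the most of the 10, and the call was lost when each library's trend of count with exonic length was removed (log2 fold change 0.07, adjusted p = 0.596). The same step gave unc-104 2.54, milt 0.74 and Klc 0.61 on the log2 scale, each still past the threshold. It moved the median of all genes from -0.17 to -0.05.

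The intermediate chain sw (FBgn0003654, chromosome X from 20227961 to 20236382, minus strand) links the heavy chain to dynactin. It was at 115, 150 and 136 CPM in pupal control libraries and 96.9, 114 and 110 CPM in larval control libraries, with every pupal value above every larval one (log2 fold change 0.33, SE 0.09, adjusted p = 0.00134). The near-identical Sdic genes beside sw could take some of its reads. Their 7 rows held at most 23 reads in any library, and 3 of the rows were at 0 in all 18.

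The light chain robl (FBgn0024196, chromosome 2R from 17456472 to 17457129, plus strand) had 12.9, 19.6 and 16.2 CPM in pupal control libraries and 13.5, 16.9 and 16.1 CPM in larval control libraries. The neuron groups overlapped and the stage difference did not pass the test (log2 fold change 0.08, SE 0.15, adjusted p = 0.628). With GFP dsRNA, BG3 cells held 49.5, 70.4 and 52.5 CPM, all above the neurons. It is the shortest of the genes, with 527 exonic bases, and had the fewest reads, 49 to 265 per library.

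Lis-1 binds the dynein heavy chain and helps it start moving, and hook joins dynein to endosomes in its mammalian relatives. Lis-1 (FBgn0015754, chromosome 2R from 16178826 to 16185103, plus strand) was at 763, 734 and 784 CPM in pupal control libraries, 233, 232 and 228 CPM in larval control libraries and 101, 103 and 108 CPM in BG3 cells with GFP dsRNA. The groups stood apart, and pupal neurons were 3.31-fold above larval neurons (log2 fold change 1.73, SE 0.08, adjusted p = 3.05e-16). The level of hook (FBgn0001202, chromosome 2L from 19030844 to 19033498, minus strand) was 135, 113 and 122 CPM in pupal control libraries and 32.8, 31.4 and 31.0 CPM in larval control libraries. It was 32.3, 27.1 and 26.6 CPM in BG3 cells with GFP dsRNA, which overlapped the larval controls. The stage difference was 3.89-fold (log2 fold change 1.96, SE 0.09, adjusted p = 2.84e-16).

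Between pupal RNAi and larval RNAi neurons, where 82.4% of genes were called (38.7% higher and 43.7% lower), 7 genes were higher and Khc was lower. The same genes were those without overlap of the libraries, against 83.4% of all genes. The log2 fold changes were 2.996 for unc-104, 1.78 for hook, 1.61 for Lis-1, 1.31 for milt, 0.63 for Dhc64C, 0.27 for Klc and 0.26 for sw, against -0.67 for Khc. Miro did not pass (0.18, adjusted p = 0.0669), although it did without pupal RNAi replicate 2 (0.26, adjusted p = 0.0236). With the length trend removed Dhc64C turned to the other side (-0.27, adjusted p = 0.0418).

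**Figure D2:**
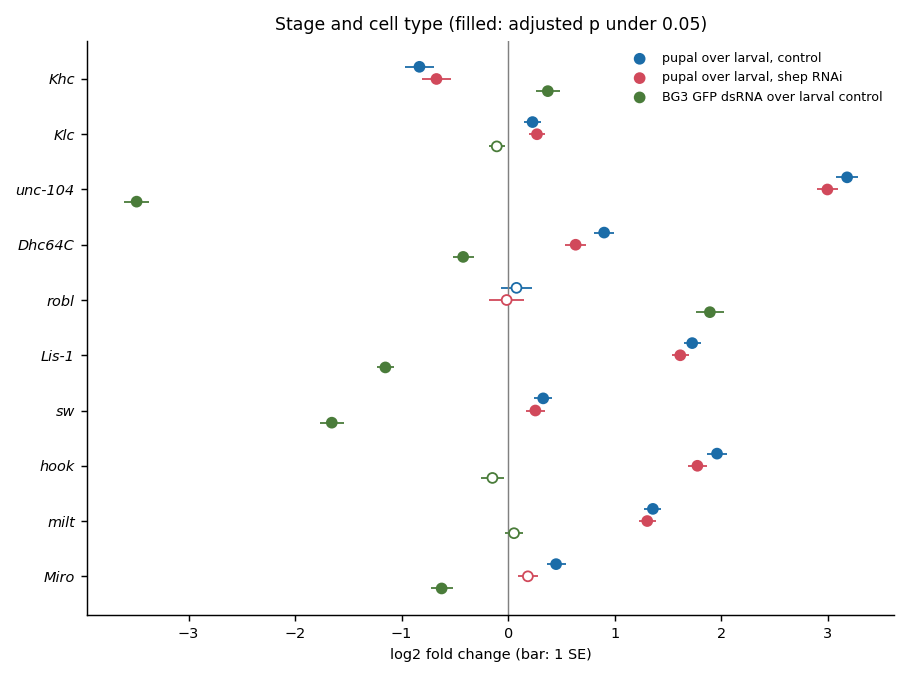
Log2 fold change (x axis, bars 1 SE) of each gene between stages in control neurons (blue), between stages in shep RNAi neurons (red) and between BG3 cells with GFP dsRNA and larval control neurons (green). Filled points passed an adjusted p under 0.05, and unc-104 lies at 3.18 between stages and at -3.49 in BG3 cells.

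Per kilobase of exonic length, the order of the genes changed with the cells. In pupal control neurons unc-104 led at 511 ± 26.7 CPM per kilobase (SD, n = 3), above 99.1% of the genes that passed the filter. Lis-1 came next at 220 ± 7.32, ahead of Klc at 64.7 ± 4.03, and Khc was the lowest at 15.5 ± 3.74. The neighbours Dhc64C (57.4 ± 7.61) and hook (53.1 ± 4.75) were within each other's spread, as were Miro (17.9 ± 1.45) and Khc. In larval control neurons Lis-1 led at 66.8 ± 0.815, followed by unc-104 at 56.7 ± 2.61 and Klc at 55.5 ± 1.60, which did not differ beyond their spread. There sw (32.4 ± 2.74), Dhc64C (30.9 ± 2.58), robl (29.5 ± 3.34) and Khc (27.8 ± 3.48) also lay within their spread. In BG3 cells with GFP dsRNA robl led at 109 ± 21.5 and unc-104 came last at 5.05 ± 0.335.

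Ratios within a library, per kilobase, do not depend on the scaling between libraries. The ratio of unc-104 to Khc was 34.0 ± 6.53 (SD, n = 3) in pupal control neurons, 2.07 ± 0.319 in larval control neurons and 0.141 ± 0.0166 in BG3 cells with GFP dsRNA. Per kilobase, unc-104 thus exceeded the kinesin-1 heavy chain in neurons and fell short of it in the cell line. Klc to Khc was 4.29 ± 0.780 in pupal control neurons, 2.01 ± 0.182 in larval control neurons and 1.44 ± 0.119 in BG3 cells. The heavy chains of dynein and kinesin-1, Dhc64C to Khc, stood at 3.76 ± 0.409, 1.12 ± 0.0465 and 0.640 ± 0.0211 in the same order. The dynein chains did not keep a fixed ratio either. The ratio of robl to Dhc64C was 0.553 ± 0.189 in pupal control neurons and 4.78 ± 1.19 in BG3 cells, while sw to Dhc64C was 0.721 ± 0.189 and 0.450 ± 0.0861. Miro to milt was 0.374 ± 0.0310 in pupal control neurons and 0.704 ± 0.0528 in larval control neurons, with no overlap of the libraries. These ratios are descriptions with no test. Exonic length is that of all annotated transcripts together, which need not be the length of the transcript in use. The ratios also keep each library's trend of count with exonic length. Removing that trend moved Dhc64C from -0.42 to 1.00 and Khc from 0.37 to 0.92 (log2 fold changes, BG3 cells against larval control neurons).

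**Figure D3:**
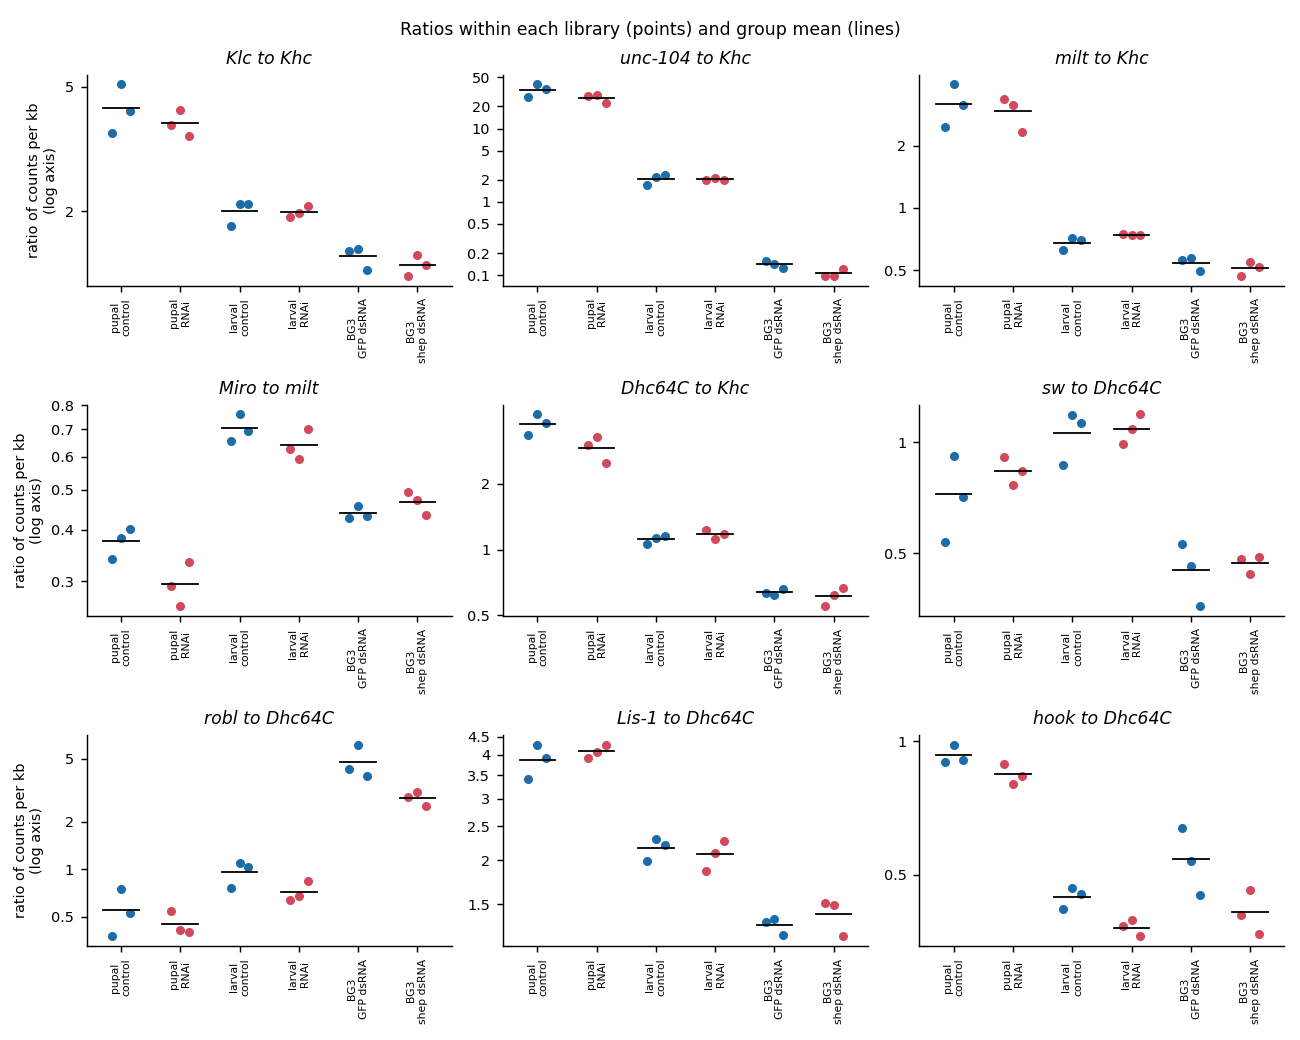
Ratio of counts per kilobase for 9 pairs of genes within each library (points, log axes) with group means (lines), controls in blue and shep knockdown in red. The ratio of unc-104 to Khc drops from 34.0 in pupal control neurons to 2.07 in larval control neurons and 0.141 in BG3 cells with GFP dsRNA.

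In pupal neurons the partial knockdown of shep came with lower levels of hook and Miro, and no gene of the 10 was called higher. These 2 calls among 10 stand beside 7.65% of 8784 genes called in either direction and 4.17% called lower. The median log2 fold change of the 10 was -0.23, beside 0.01 over all genes tested, and 9 of the 10 values were negative. Of these, Klc (-0.06), sw (-0.04) and milt (-0.01) lay within 1 SE of 0. For hook the pupal RNAi libraries held 95.0, 94.4 and 87.7 CPM, all below the 113 to 135 CPM of the controls. Its level fell by 25.5% (log2 fold change -0.42, SE 0.09, adjusted p = 0.00307). Miro was at 57.5, 48.4 and 53.9 CPM in pupal RNAi libraries, below the 61.9 to 72.9 CPM of the controls. Its level fell by 22% (log2 fold change -0.36, SE 0.09, adjusted p = 0.0185), a call lost without pupal RNAi replicate 2 (adjusted p = 0.1002) or without pupal control replicate 3 (adjusted p = 0.0984). Its opposite-strand neighbour spas stood at -0.16 on the log2 scale (adjusted p = 0.289).

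Neither unc-104 nor Dhc64C passed, with adjusted p near the threshold. For unc-104 every pupal RNAi library was below every control, with a log2 fold change of -0.28 (SE 0.09, adjusted p = 0.0618). It passed in 6 of 20 alternative analyses, DESeq2 (adjusted p = 0.00148) and limma-voom (0.0278) among them. For Dhc64C the log2 fold change was -0.29 (SE 0.10, adjusted p = 0.0709), with overlap at 742 CPM in RNAi against 724 CPM in control, and 5 of 20 alternatives passed. The light chain robl was at 13.2, 11.1 and 9.6 CPM against 12.9 to 19.6 CPM in controls (log2 fold change -0.52, SE 0.17, adjusted p = 0.0584). Lis-1 was at 626, 718 and 671 CPM, below its controls in every library (log2 fold change -0.19, SE 0.08, adjusted p = 0.136). Along with hook and Miro, these 4 genes were lower at an unadjusted p under 0.05, as were 11.4% of all genes tested.

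The other 4 genes overlapped between pupal RNAi and pupal control libraries. Their log2 fold changes were 0.06 for Khc (SE 0.14), -0.06 for Klc (SE 0.08), -0.04 for sw (SE 0.09) and -0.01 for milt (SE 0.08), with adjusted p from 0.723 to 0.962. Libraries of the 2 groups did not overlap for unc-104, Lis-1, hook and Miro, all lower in RNAi, and 24.1% of all genes tested showed no overlap in either direction. The count over all genes rests in part on single libraries: it was 319 without pupal RNAi replicate 1, 408 without pupal control replicate 1 and 359 without pupal control replicate 3, against 672 in full. The 6 glia markers summed to 127 to 184 CPM in pupal RNAi and 160 to 206 CPM in pupal control libraries, with wrapper below 1 CPM in both and repo and moody below it in RNAi. Their part in these results was not tested.

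**Figure D4:**
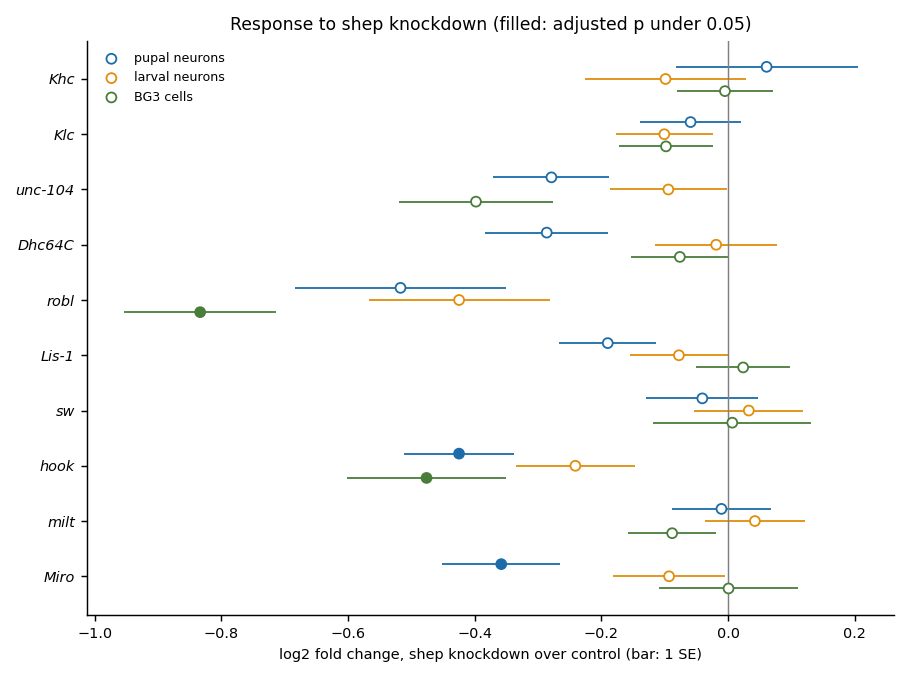
Log2 fold change of shep knockdown over control (x axis, bars 1 SE) for each gene in pupal neurons (blue), larval neurons (orange) and BG3 cells (green). Filled points passed an adjusted p under 0.05: hook and Miro in pupal neurons, and robl and hook in BG3 cells.

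In larval neurons the largest differences were again in robl and hook, but neither passed after adjustment. For robl the larval RNAi libraries held 11.3, 10.6 and 13 CPM, all below the controls (log2 fold change -0.42, SE 0.14, unadjusted p = 0.00677, adjusted p = 0.302). For hook they held 29.5, 27.2 and 24.7 CPM, again all below (log2 fold change -0.24, SE 0.09, unadjusted p = 0.0167, adjusted p = 0.416). The edgeR test called 0 of the 10, with these 2 lower at an unadjusted p under 0.05 (4.34% of all genes), and DESeq2 and limma-voom called 0 as well. Over all genes 0.364% were called, and 15.8% had no overlap between the groups. The remaining log2 fold changes ran from -0.10 to 0.04, and Klc was the only other gene without overlap, at 107 to 109 CPM in RNAi against 112 to 118 CPM in control.

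Whether the response differed between the stages was tested directly as the difference of the log2 fold changes. It called 0 of the 10 genes by edgeR and by limma-voom, beside 0.364% of all genes by edgeR. DESeq2 also called 0, but it gave no adjusted p for robl. For Miro the pupal response minus the larval response was -0.26 (SE 0.13, unadjusted p = 0.0493, adjusted p = 0.477), the only unadjusted p under 0.05, where 5.36% of all genes had a lower pupal response at that level. For Dhc64C it was -0.27 (SE 0.14, adjusted p = 0.497) and for unc-104 -0.18 (SE 0.13, adjusted p = 0.669). The calls of hook and Miro in pupal neurons are therefore not shown to be particular to that stage.

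In BG3 cells robl had the largest response, and hook passed as well. With shep dsRNA robl stood at 31.8, 33.5 and 32.3 CPM, against 49.5 to 70.4 CPM with GFP dsRNA. Its level fell by 43.9% (log2 fold change -0.83, SE 0.12, adjusted p = 3.06e-04), a call kept in all 14 alternative analyses. For hook the shep dsRNA libraries held 19.7, 21.9 and 21.0 CPM, below the 26.6 to 32.3 CPM of the controls. Its level fell by 28.1% (log2 fold change -0.48, SE 0.13, adjusted p = 0.0267). That call was lost without GFP dsRNA replicate 1 (adjusted p = 0.158) and without shep dsRNA replicate 1 (0.148), 2 (0.0678) or 3 (0.101). These 2 of 10 stand beside 5.41% of 6816 genes called, with 3.35% of all genes higher and 2.07% lower.

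The kinesin-3 motor unc-104 was below its controls in every BG3 library without passing (log2 fold change -0.40, SE 0.12, adjusted p = 0.0551), and 121 to 201 reads per library lay behind it. It passed in 5 of 13 alternatives, such as those without GFP dsRNA replicate 2 (0.0433) or without shep dsRNA replicate 3 (0.0328). Klc was also without overlap (log2 fold change -0.10, SE 0.07, adjusted p = 0.517), and 23.6% of all genes tested showed none. The other 6 genes ran from -0.09 to 0.02 on the log2 scale. For Miro the value was 0.00 (SE 0.11), at 33.4, 32.8 and 31.5 CPM against 31.3, 34.6 and 31.3 CPM.

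The 3 knockdown comparisons share no library, although those in pupal and larval neurons share an estimate of the spread. Among 6415 genes tested in all of them, 0.577% were lower at an unadjusted p under 0.05 each time, and robl and hook were among these. Likewise 0.577% had every knockdown library below every control each time, and hook was among these. A negative log2 fold change in all 3 was found for 5 of the 10 genes (Klc, unc-104, Dhc64C, robl and hook) and for 24.2% of all genes. The values for hook were -0.42, -0.24 and -0.48, and those for robl -0.52, -0.42 and -0.83.

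BG3 cells with GFP dsRNA differed from larval control neurons in 7 of the 10 genes, where 82.5% of 9439 genes were called (37% higher and 45.4% lower). Without overlap were 2 higher and 6 lower genes, the latter with Klc among them, against 83.9% of all genes. Lower in the cell line were unc-104 (log2 fold change -3.49, SE 0.12, adjusted p = 1.43e-24), sw (-1.66, SE 0.11), Lis-1 (-1.15, SE 0.08), Miro (-0.62, SE 0.10) and Dhc64C (-0.42, SE 0.10). Higher were robl (1.89, SE 0.13, adjusted p = 4.34e-15) and Khc (0.37, SE 0.11, adjusted p = 0.0033). The dynein intermediate chain sw and the light chain robl thus went in opposite directions. For sw the cell line held 38.3, 33.2 and 30.3 CPM, below each of the 96.9 to 114 CPM of the neurons.

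Klc (-0.11), hook (-0.15) and milt (0.05) did not pass, with adjusted p from 0.195 to 0.535, and hook passed only without GFP dsRNA replicate 1 (-0.28, adjusted p = 0.0360). These values depend on how gene length is treated. Once the length trend was removed Dhc64C was higher in the cell line (1.00, adjusted p = 7.24e-10), milt was higher (1.08, adjusted p = 1.77e-14) and Miro no longer passed (-0.07, adjusted p = 0.571). The values of unc-104 (-2.43), sw (-1.17), Lis-1 (-0.64) and Khc (0.92) kept their direction and side of the threshold, and the median of all genes moved from -0.23 to 0.00. The cell line and the neurons also differ in how the cells were obtained, which cannot be told apart from cell type.

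The genes were compared by the shape of their 6 group means of log2 CPM, each centred on its own mean. Distance here is the root mean square difference between 2 such shapes, over 4451 genes with a mean of at least 20 CPM. Nearest to Khc were Arp2 (distance 0.04), CG31908 (0.06) and TfIIA-L (0.07), and nearest to Dhc64C were gus (0.06), CG17734 (0.06) and GckIII (0.07). Among the 10 themselves the closest pair was Dhc64C and Miro (0.19), followed by Klc and Miro (0.25) and milt and Dhc64C (0.26). The dynein chain sw lay nearest to Dhc64C, at 0.51, but neither Klc nor Khc was the nearest of the other. Khc lay nearest to robl, at 0.60, and the nearest to unc-104 was Lis-1, at 1.64, the largest such distance.

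Around the 10 genes, 64 further transport genes in 10 lists were tested in neurons. Between stages in control neurons 32 were higher and 20 lower, with a median log2 fold change of 0.37 beside -0.17 over all genes. The 81.2% called lay near the 83.3% of all genes (39% higher and 44.3% lower), and the counts by list that follow are descriptions against that background. All 6 genes around kinesin-1 were higher. They include Aplip1 (2.12), an adaptor of the JIP1 type, the kinase Atg1 (1.54), the adaptor Unc-76 (1.40) and syd (1.38), the adaptor sunday driver. All 4 kinesin-2 genes were higher, with Kif3C at 3.54, Klp68D at 1.76, Klp64D at 1.39 and the accessory subunit Kap3 at 0.91. Both other kinesin-3 motors rose, Khc-73 by 1.77 and Klp98A by 1.56 on the log2 scale. Khc thus fell while its adaptors rose. Among 4 other kinesins cos, which acts in Hedgehog signalling, was higher (1.48) and neb lower (-3.67).

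The motors of cell division took the opposite course. Of 11 mitotic kinesins tested 10 were lower in pupal neurons, among them cmet (-6.96), pav (-6.87), Klp67A (-3.91) and ncd (-3.32). On the dynein side ctp (0.99), Dlc90F (0.53) and Dlic (0.17), its other chains, were higher. The near-identical Cdlc2 was not tested and could share reads with ctp. Dynactin, the dynein activator, was mixed: of 10 subunits DCTN5-p25 (0.73) and DCTN4-p62 (0.68) were higher, and the actin-capping subunits cpa (-1.50) and cpb (-1.48) were lower. Of 10 dynein regulators 6 were higher, BicD (2.30) and Rilpl (2.09) among them, and 4 lower, with Spindly (-5.85), a kinetochore adaptor, and Nup358 (-3.79), a nuclear pore protein. Of 10 cargo and track genes 8 were higher, led by Rab3-GEF (5.58), the microtubule-associated futsch (3.14), the mitochondrial fusion gene Marf (2.40) and Appl (1.81). Of 4 axonemal dynein heavy chains tested 3 were lower.

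**Figure D5:**
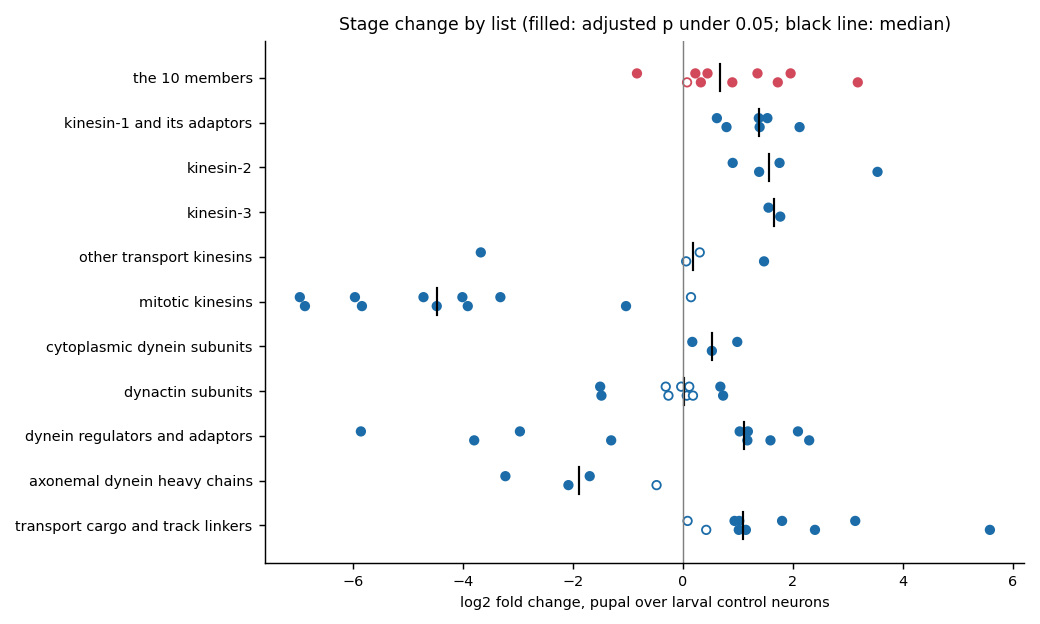
Log2 fold change between pupal and larval control neurons (x axis) for the 10 genes (red) and for each of 10 lists of other transport genes (blue), with list medians as black lines. Filled points passed an adjusted p under 0.05, and 10 of 11 mitotic kinesins lie to the left of 0 while all 12 genes of the kinesin-1, kinesin-2 and kinesin-3 lists lie to the right.

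In pupal RNAi neurons 3 of the 64 were lower and 2 higher, and these 7.81% lay near the 7.65% called over all genes. Aplip1 fell by 0.30 (adjusted p = 0.0158), Klp64D by 0.45 (adjusted p = 0.0219) and cos by 0.27 (adjusted p = 0.0388) on the log2 scale. The dynein light chain ctp rose by 0.50 (adjusted p = 0.0378) and Nup358 by 0.39 (adjusted p = 0.0167). For the 10 dynactin subunits the median was -0.25, with the lowest adjusted p at 0.0788. In larval RNAi neurons the lowest adjusted p of the 64 was 0.0712. In BG3 cells 54 of these genes were tested, and Dlc90F (0.39, adjusted p = 0.0110) and futsch (0.73, adjusted p = 0.0154) were higher with shep dsRNA, or 3.70% of them against 5.41% of all genes.

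Against larval control neurons, BG3 cells with GFP dsRNA had 30 of the 64 genes lower and 22 higher, and these 81.2% lay near the 82.5% called over all genes (37% higher and 45.4% lower). All 4 kinesin-2 genes and both further kinesin-3 genes were lower, with Kap3 at -2.02 and Khc-73 at -1.63. Aplip1, at 63.8 to 68.3 CPM in larval control libraries, had 0 reads in all 3 BG3 libraries, a count that allows up to 0.733 to 0.797 CPM for counting error only. Unc-76 was higher (1.02), as were 8 of 11 mitotic kinesins, with cana at 3.44 and Klp3A at 2.48. On the dynein side ctp (-1.37) and Dlic (-0.42) were lower and Dlc90F (1.248) higher, so the light chains robl and Dlc90F shared a direction that sw, Dlic and ctp did not.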

How the data were processed

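The authors deposited a table of read counts per gene, raw and not normalized, for all 18 libraries of total RNA. Per the submitters' processing notes, the tools were cutadapt 1.10, HISAT2 2.0.4 and featureCounts 1.5.0-p3 on dm6. The annotation release, strand setting and treatment of multi-mapping reads are not given in the sources used here. Libraries were made with a Nugen Ovation kit, per the labels' protocols.

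Genes were matched by FlyBase ID to the Ensembl release 115 annotation (BDGP6, the dm6 assembly), which gave positions and exonic lengths. Counts were filtered with filterByExpr, scaled by TMM and tested with edgeR 4.0.16 (quasi-likelihood, robust) in R 4.3.3. The neuron fit held 12 libraries, the BG3 fit 6, and the comparison of BG3 cells with larval neurons all 18. P-values were adjusted by Benjamini-Hochberg over all genes tested and called under 0.05. CPM used TMM factors over all 18 libraries. DESeq2 1.42.0, limma 3.58.1 (voom), other filters, a per-library lowess trend of count with exonic length (span 0.3) and leaving out each library were alternatives. The tests were tested on simulated counts with known changes. Total counts set the precision, and no pair of replicates agreed within sampling noise. Named are the 10 genes in each comparison and, per list, the called genes with the 4 smallest p-values. Near patterns are named for Khc and Dhc64C (3 genes each), and the nearest other member for each gene. The genes and lists were chosen with earlier results of these data known.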

Additional observations from a re-analysis of the deposited data

How the results depend on the processing

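Of the values for the 10 genes under the alternatives, 1351 kept their side of the threshold, 23 gained a call and 9 lost it. Another 2 were called in the reverse direction, both for Dhc64C with the length trend removed. They were -0.27 between stages in RNAi neurons and 1.00 in BG3 cells against larval neurons. The 1351 include values that changed sign without a call, such as Khc in pupal RNAi neurons, which ran from -0.10 to 0.24. In pupal RNAi neurons 2 of the 10 genes were called, against 5 with DESeq2, 5 with no filter and 4 with the length trend removed. The share of higher calls there was 45.5%, against 35.0% with no filter and 32.8% without the length trend, and in larval neurons 46.9% against 58.5% with DESeq2 size factors. Over all genes, the 32 calls in larval neurons became 76 with no filter, and the 32 for the difference between stages became 116 with DESeq2 and 102 with no filter. In BG3 cells 1 of the 10 genes was called with DESeq2, which gave no adjusted p for unc-104, sw, hook and Miro. A fit of all 18 libraries also called 1 of the 10 there, and 115 genes in all against 369. The cause was not tested. Leaving out single libraries gave ranges of 1 to 5 of the 10 genes and 319 to 895 of all genes in pupal RNAi neurons, 0 to 0 and 10 to 52 in larval neurons, 0 to 0 and 13 to 89 for the difference, 9 to 9 and 7177 to 7442 between stages in controls, 8 to 9 and 7070 to 7391 in RNAi, 1 to 3 and 133 to 466 for BG3 shep dsRNA, and 7 to 8 and 7561 to 7928 for BG3 cells against larval neurons. The check of deviations did not settle whether replicate numbers pair samples (4 of 21 same-numbered pairs above r = 0.1, range -0.106 to 0.159). In BG3 cells the same-numbered pairs had r of 0.041, 0.097 and 0.111, and the other pairs -0.117 to 0.022. A replicate block called 616 genes in BG3 cells, against 369 without it, and brought unc-104 there to an adjusted p of 0.0278. Among the 10 genes, robl had the largest SE of the shep RNAi values in neurons (0.17 and 0.14).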
